A study of Mus musculus with 12 samples.

Results

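The expression of kinesins, tubulins and other microtubule proteins was examined in bulk RNA-seq of FACS-purified Ebf2-EGFP+ and Ebf2-EGFP- cells from mouse cerebral cortex on embryonic days E11.5, E13.5 or E15.5. The members were the genes of the deposited coding table whose symbols carry the names of kinesins and kinesin light chains, tubulins, structural microtubule-associated proteins, doublecortins, stathmins, dyneins, tyrosine ligase-like enzymes and end-binding proteins. These were 68 of the 4859 genes in the table, which lists only genes that the authors had selected as differential, so that a family member missing from it may still be expressed. All 6 groups came from Tg(Ebf2-EGFP)FB58Gsat mice, with no other allele or treatment given, and each had 2 libraries of cells pooled from several embryos. In these mice a transgene places EGFP under the control of *Ebf2* regulatory sequence. By the authors' account, most positive cells belong to the preplate at E11.5 (future subplate and Cajal-Retzius (CR) neurons), whereas CR neurons predominate by E15.5. Negative cells are mostly progenitors at E11.5, joined by cortical plate neurons at the later stages. Levels are given as FPKM, fragments scaled to the length of the transcript and to the size of the library. The methods give an average depth only, and that of each library is not given.

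Microtubules are hollow polymers of alpha and beta tubulin whose plus ends grow and shrink. In a dividing cell, mitotic kinesins slide, depolymerise and cross-link them to build the spindle and to complete cytokinesis. In a neuron, which no longer divides, structural microtubule-associated proteins bundle them in axons and dendrites, and transport kinesins and cytoplasmic dynein carry cargo along them.

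Sorted positive cells held more *Ebf2* transcript, and more of most CR markers, than negative cells. *Ebf2* itself measured 61.2 and 49.1 FPKM in Ebf2-EGFP+ and 1.17 and 0.952 in Ebf2-EGFP- libraries at E11.5. At E13.5 it measured 6.66 and 4.32 FPKM in Ebf2-EGFP+ and 1.54 and 1.05 in Ebf2-EGFP- libraries, and at E15.5 2.83 and 5.14 FPKM in Ebf2-EGFP+ and 0.103 and 0.0644 in Ebf2-EGFP- libraries. The *Ebf2* level of the positive cells was therefore highest at E11.5, and the libraries of the populations did not overlap at any stage. All 7 CR markers on the list were in the table, led by *Reln*. Limma called 6, 6 and 7 of them higher in the positive cells at the 3 stages, against 36.8%, 32.1% and 25.8% of all listed genes, with *Ndnf* not called at the first 2. Together they measured 259 and 246 FPKM in Ebf2-EGFP+ and 11.8 and 11.1 in Ebf2-EGFP- libraries at E11.5. At E13.5 they summed to 171 and 228 FPKM in Ebf2-EGFP+ and 5.24 and 6.13 in Ebf2-EGFP- libraries, and at E15.5 to 539 and 1157 FPKM in Ebf2-EGFP+ and 18.3 and 14 in Ebf2-EGFP- libraries.

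At E11.5 nearly every role in the microtubule system differed between neurons and progenitors, in opposite directions for dividing and for axonal functions. In limma fits on log2(FPKM + 1) with Benjamini-Hochberg adjustment over all 4859 genes, 46 of the 68 members were higher in Ebf2-EGFP+ cells (adjusted p under 0.05), against 36.8% of all listed genes, and 22 were lower, against 44.9%. At E13.5 the numbers were 38 higher, against 32.1% of all genes, and 24 lower, against 43.5%. By E15.5 they were 26 higher, against 25.8%, and 19 lower, against 31.6%. The count of higher members at E15.5 was 16 without replicate 1 of the Ebf2-EGFP- cells of that stage, where 1019 of all 4859 genes were called higher. At E11.5 and E13.5 the share of members called higher thus lay above the background and that of members called lower below it. At E15.5 both shares lay nearer to it. The median log2 fold change of the members was 0.98, 0.62 and 0.25 at the 3 stages, beside -0.19, -0.19 and -0.11 over all listed genes. Median-of-ratios scaling moved those medians of all genes to 0.00, 0.00 and 0.02, which it does by construction. In a table of genes selected as differential that median need not stand for no change, so it serves only for comparison. After scaling limma called 43 members higher and 22 lower at E13.5, where 1900 and 1752 of all 4859 genes were called. At E15.5 it called 32 and 17, where 1597 and 1323 of all genes were called.

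**Figure D1:**
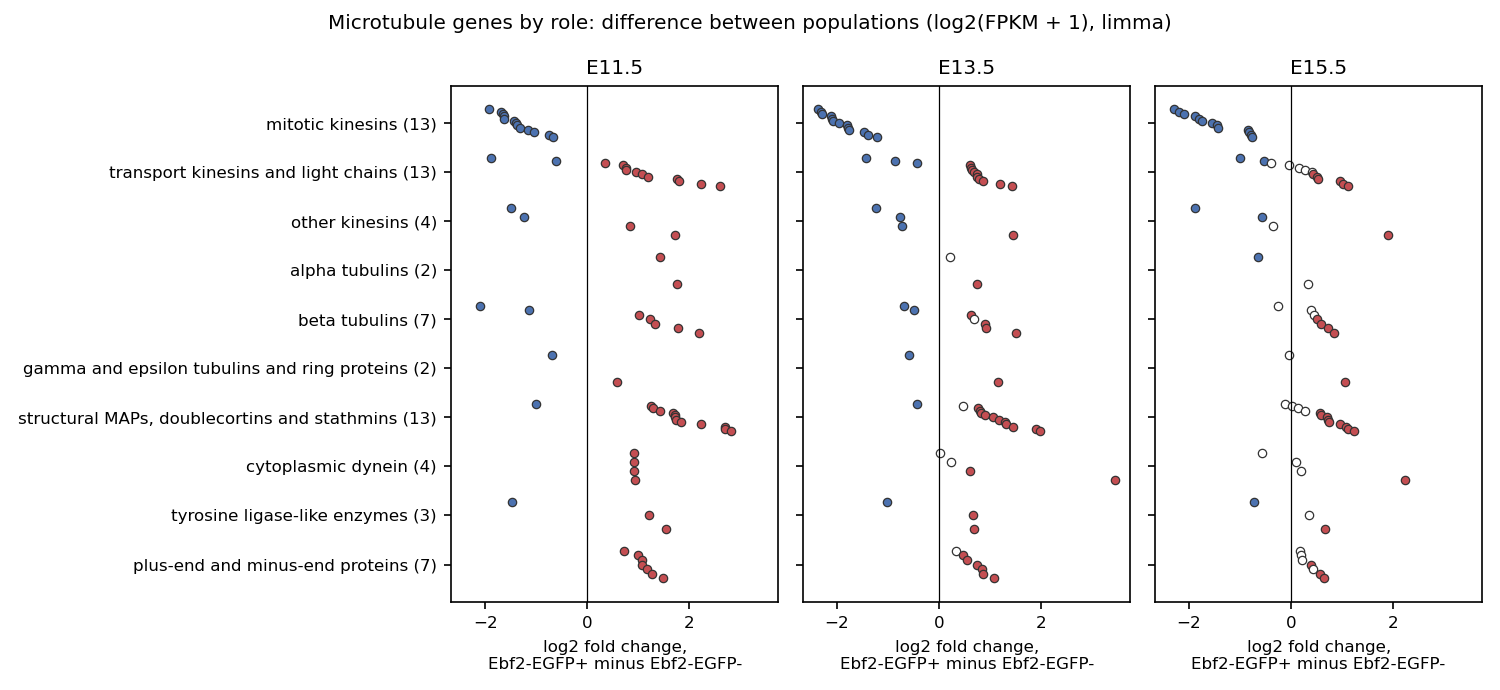
Log2 fold change between Ebf2-EGFP+ and Ebf2-EGFP- cells (horizontal axis) of the 68 microtubule genes by role (vertical axis, number of genes in brackets), in a panel per stage. Each point is 1 gene, filled red or blue where limma called it higher or lower in Ebf2-EGFP+ cells and open where it did not; the 13 mitotic kinesins lie left of 0 at each stage.

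Of the 68 members, limma called 25 higher in the positive cells throughout, against 14.6% of all listed genes, and 16 lower throughout, against 21.8%. Those higher throughout were 15 without replicate 1 of the negative E15.5 cells, and 32 in the paired fit with the replicate block. Those lower throughout were 14 after median-of-ratios scaling or with only the groups compared, 17 with 0.1 FPKM added and 16 with the replicate block. The shares of all genes called throughout are given for the main fit only, so counts of other settings have no background of their own. At E15.5 alone 1524 of all 4859 genes were called higher with the block and 1254 without it. *Kif21a*, *Kif26b*, *Tuba4a* and *Tubb4b* were called in opposite directions at different stages. With the block *Kif21b* and *Dynlt1b*, called higher at E11.5, were called lower at E15.5 (limma adjusted p = 0.0348 and 0.000773 with the replicate block). The group means compared at the stages share no libraries with one another, but all 12 libraries enter the estimate of each gene's spread. Calls at different stages are therefore not independent.

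Mitotic kinesins formed the most uniform group. All 13 of the 15 on the list that were in the table were lower in Ebf2-EGFP+ cells at every stage, as they were after scaling, against 44.9%, 43.5% and 31.6% of all listed genes called lower. With 1 library left out, not every one of these calls held at E11.5 and at E15.5. The 13 had medians of -1.39, -1.95 and -1.55 on the log2 scale. *Kif11*, the bipolar motor that pushes spindle poles apart, lies on chr19:37376382-37421863 of GRCm38.p6. It measured 15.3 and 13.52 FPKM in Ebf2-EGFP+ and 49.4 and 43.5 in Ebf2-EGFP- libraries at E11.5 (log2 fold change -1.62 ± 0.27 SE, limma adjusted p = 0.00015). At E13.5 it measured 6.83 and 4.14 FPKM in Ebf2-EGFP+ and 36.7 and 25.4 in Ebf2-EGFP- libraries (log2 fold change -2.32 ± 0.27 SE, limma adjusted p = 2.33e-05). By E15.5 the values were 0.716 and 0.741 FPKM in Ebf2-EGFP+ and 9.94 and 5.52 in Ebf2-EGFP- libraries (log2 fold change -2.29 ± 0.27 SE, limma adjusted p = 3.62e-05). Both *Kif11* libraries of the positive cells lay below both of the negative cells at each stage, and both populations lost the transcript with time.

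Kinesins of cytokinesis followed the same course. *Kif20a*, which works at the central spindle, measured 12.6 and 12.7 FPKM in Ebf2-EGFP+ and 34.9 and 34.2 in Ebf2-EGFP- libraries at E11.5 and 0.436 and 0.676 in Ebf2-EGFP+ and 5.74 and 2.99 in Ebf2-EGFP- libraries at E15.5 (at E15.5 log2 fold change -1.74 ± 0.29 SE, limma adjusted p = 0.000368). *Kif23*, the motor of the centralspindlin complex, measured 8.87 and 7.89 FPKM in Ebf2-EGFP+ and 29.6 and 26.9 in Ebf2-EGFP- libraries at E11.5 and 0.302 and 0.451 in Ebf2-EGFP+ and 5.1 and 3.22 in Ebf2-EGFP- libraries at E15.5 (at E15.5 log2 fold change -1.88 ± 0.23 SE, limma adjusted p = 4.48e-05). In both genes the libraries of the populations did not overlap at any of the 3 stages. *Kif20a* overlaps exons of *Cdc23* on the opposite strand in the GENCODE annotation, and its reads may be shared with that gene.

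Motors that move or remodel chromosomes and spindle fibres did likewise. *Kif2c*, a microtubule depolymerase of the kinetochore, measured 4.81 and 2.85 FPKM in Ebf2-EGFP+ and 23 and 15.7 in Ebf2-EGFP- libraries at E13.5 (log2 fold change -2.08 ± 0.25 SE, limma adjusted p = 3.09e-05). The chromokinesin *Kif4* measured 4.2 and 2.43 FPKM in Ebf2-EGFP+ and 20.6 and 14.5 in Ebf2-EGFP- libraries (log2 fold change -2.12 ± 0.25 SE, limma adjusted p = 2.66e-05), and *Kif22*, another chromokinesin and the most abundant of the list by the sum of all 12 libraries, measured 6.7 and 4.56 in Ebf2-EGFP+ and 38.6 and 25 in Ebf2-EGFP- libraries (log2 fold change -2.30 ± 0.28 SE, limma adjusted p = 3.43e-05). *Kif15*, which assists *Kif11* in the spindle, had the largest difference of the list at E11.5, with 8.3 and 8.41 FPKM in Ebf2-EGFP+ and 35.6 and 33.6 in Ebf2-EGFP- libraries (log2 fold change -1.93 ± 0.25 SE, limma adjusted p = 2.36e-05). In each of these genes both positive libraries lay below both negative ones. *Kifc1*, the minus-end directed spindle motor, measured 12 and 11.9 FPKM in Ebf2-EGFP+ and 24.9 and 26.1 in Ebf2-EGFP- libraries at E11.5 and 1.42 and 1.42 in Ebf2-EGFP+ and 6.62 and 4.82 in Ebf2-EGFP- libraries at E15.5 (at E15.5 log2 fold change -1.46 ± 0.20 SE, limma adjusted p = 9.96e-05). The longest GENCODE transcripts of *Kifc1* and *Kifc5b* share 95.9% of aligned bases, so the division of reads between the 2 genes is uncertain.

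Summed over the 13 genes, mitotic kinesins measured 119 and 118 FPKM in Ebf2-EGFP+ and 337 and 334 in Ebf2-EGFP- libraries at E11.5. The sums were 50.1 and 31.6 FPKM in Ebf2-EGFP+ and 244 and 166 in Ebf2-EGFP- libraries at E13.5 and 7.8 and 8.24 FPKM in Ebf2-EGFP+ and 68.1 and 40 in Ebf2-EGFP- libraries at E15.5. Within replicate 1 the positive sum was 0.205 of the negative at E13.5 and 0.114 at E15.5. Within replicate 2 it was 0.191 and 0.206, so after E13.5 the positive sum fell further against the negative sum in replicate 1 only. At the last stage every mitotic kinesin in the positive libraries lay between 0.0604 FPKM (*Kif14*) and 1.42 FPKM (*Kifc1*). The ratio of group means, negative over positive, had a median of 2.79, then 4.91 and last 7.93 by stage, a larger growth than the log2 fold changes show, since adding 1 FPKM compresses low values. Accordingly the test of the change between E11.5 and E15.5 depended on that constant. With 1 FPKM added, limma called *Kif2c* alone as falling further in the positive cells (log2 fold change -0.93 ± 0.36 SE, limma adjusted p = 0.0391), against 27.7% of all listed genes. With 0.1 FPKM added it called 8 of the 13, where 1428 of all 4859 genes were called in that direction. The replicate block called 3, where 1630 of all genes were called, and median-of-ratios scaling 3, where 1409 were. Only the count with 0.1 FPKM added thus exceeded the share of all genes. Leaving out 1 library gave between 0 and 3. None was called without any 1 of the 4 E11.5 libraries, of the 2 positive E15.5 libraries or of replicate 1 of the negative E15.5 cells, and 3 were called without replicate 2 of the negative E15.5 cells.

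**Figure D2:**
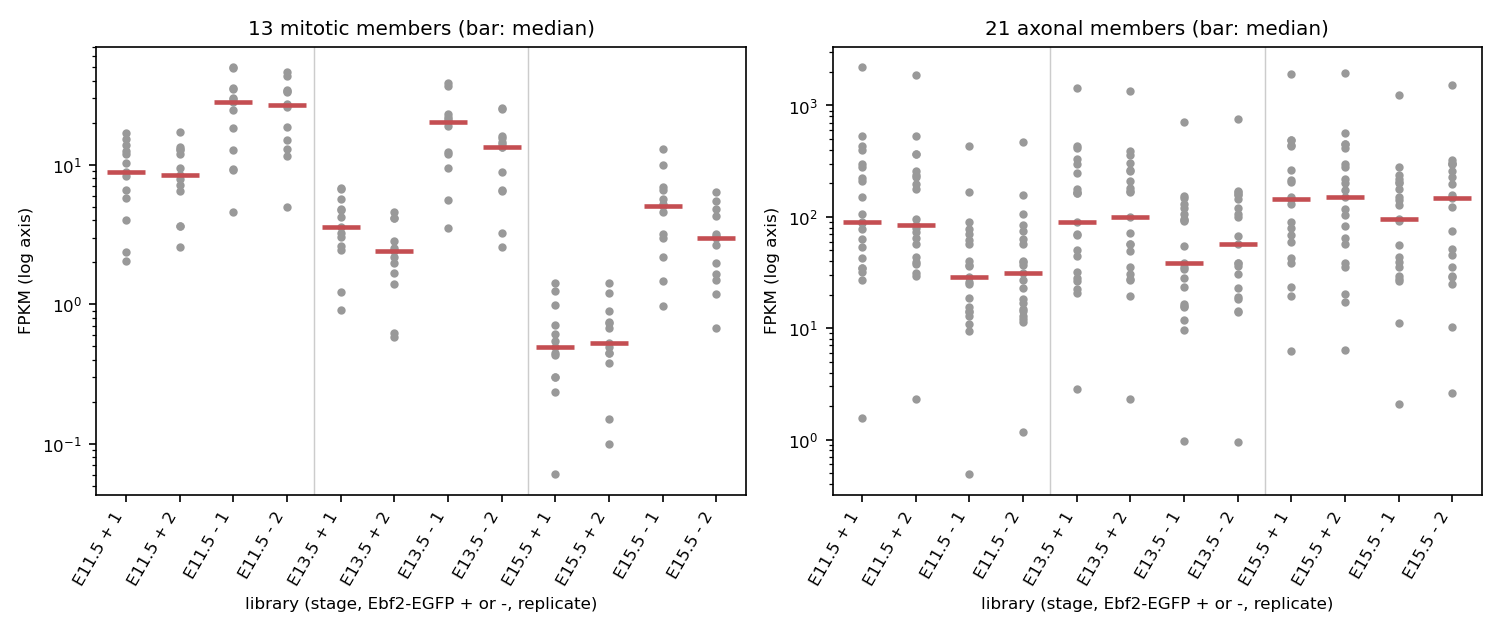
FPKM (log axis) of the 13 mitotic and 21 axonal members in each of the 12 libraries, named by stage, population (+ or -) and replicate. Each grey point is 1 gene and the red bar the median, which for mitotic members is lowest in the 2 positive libraries of E15.5 (0.494 and 0.527 FPKM).

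Mitotic kinesins fell in both populations over time. From E11.5 to E15.5 limma called 13 of 13 mitotic members lower in Ebf2-EGFP+ cells and 13 of 13 lower in Ebf2-EGFP- cells, with median log2 changes of -2.69 and -2.41. With 0.1 FPKM added the medians were -3.94 and -2.77, and the median ratio of group means, E11.5 over E15.5, was 18.7 in positive and 6.79 in negative cells. Over all members, 22 rose in positive cells, against 33.3% of all listed genes, and 24 fell, against 42.1%. In negative cells 42 rose, against 37.7%, and 23 fell, against 47.6%. These comparisons use the same E11.5 and E15.5 libraries as those between the populations. In positive cells the shares were close to the background, whereas in negative cells the members called higher exceeded it.

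Markers of dividing cells were lower in the positive cells at each stage, as the mitotic kinesins were. The 6 cell cycle markers, all in the table and led by *Pcna*, summed to 256 and 229 FPKM in Ebf2-EGFP+ and 946 and 826 in Ebf2-EGFP- libraries at E11.5 and to 49.2 and 53.4 FPKM in Ebf2-EGFP+ and 204 and 129 in Ebf2-EGFP- libraries at E15.5. At E13.5 they summed to 137 and 92.8 FPKM in Ebf2-EGFP+ and 696 and 434 in Ebf2-EGFP- libraries. Limma called all 6 lower at each stage, against 44.9%, 43.5% and 31.6% of all listed genes. The ratio of their summed group means, negative over positive, was 3.66, 4.92 and 3.25 by stage. That of the mitotic kinesin sums was 2.83, 5.02 and 6.74, so the sums parted at E15.5. The medians over genes did not part in that direction. The median log2 fold change at E15.5 was -2.55 for the cell cycle markers and -1.55 for the mitotic kinesins. With 0.1 FPKM added these medians were -3.10 and -2.72. The 7 radial glia markers, all in the table and led by *Vim*, summed to 427 and 404 FPKM in Ebf2-EGFP+ and 1582 and 1307 in Ebf2-EGFP- libraries at E11.5, 220.4 and 200.4 FPKM in Ebf2-EGFP+ and 1534 and 1032 in Ebf2-EGFP- libraries at E13.5 and 152 and 88.7 FPKM in Ebf2-EGFP+ and 811 and 453 in Ebf2-EGFP- libraries at E15.5. In positive cells 2 of these 7 rose from E11.5 to E15.5, against 33.3% of all listed genes. The other 5 fell, against 42.1%. Of the 5 intermediate progenitor markers, all in the table and led by *Eomes*, 2 were called higher in the positive cells at E11.5, near the 36.8% of all listed genes, and none lower. At both later stages 5 were called lower, against 43.5% and 31.6%. Together they measured 279 and 257 FPKM in Ebf2-EGFP+ and 96.3 and 104 in Ebf2-EGFP- libraries at E11.5. Their sums were 198 and 134 FPKM in Ebf2-EGFP+ and 499 and 364 in Ebf2-EGFP- libraries at E13.5 and 64.9 and 39.1 FPKM in Ebf2-EGFP+ and 354 and 192 in Ebf2-EGFP- libraries at E15.5. In such bulk samples fewer dividing cells and less mitotic RNA per cell cannot be told apart, and the part of these cell types in the difference was not tested. Replicate 1 of the negative cells held more of both cell cycle markers and mitotic kinesins than replicate 2 at E13.5 and at E15.5.

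Spindle and cytokinesis genes outside the kinesin and tubulin families gave a like picture. Of 37 on the list 36 were in the table, and limma called 34, 36 and 36 of them lower in the neurons by stage, against 44.9%, 43.5% and 31.6% of all listed genes, with none higher. *Tpx2*, a spindle assembly factor, measured 29.4 and 27.3 FPKM in Ebf2-EGFP+ and 73.1 and 66 in Ebf2-EGFP- libraries at E11.5 (log2 fold change -1.27 ± 0.22 SE, limma adjusted p = 0.00021) and 1.62 and 1.93 in Ebf2-EGFP+ and 16 and 10.6 in Ebf2-EGFP- libraries at E15.5 (log2 fold change -2.34 ± 0.22 SE, limma adjusted p = 7.99e-06). *Prc1*, which bundles the central spindle, measured 8.94 and 6.13 FPKM in Ebf2-EGFP+ and 51.5 and 35.9 in Ebf2-EGFP- libraries at E13.5 (log2 fold change -2.39 ± 0.29 SE, limma adjusted p = 3.25e-05). *Aurkb*, the kinase of the chromosomal passenger complex, measured 5.63 and 2.93 FPKM in Ebf2-EGFP+ and 33.8 and 20 in Ebf2-EGFP- libraries (log2 fold change -2.41 ± 0.35 SE, limma adjusted p = 9.02e-05), and *Aspm*, a spindle pole protein of progenitors, 2.07 and 1.62 in Ebf2-EGFP+ and 11.3 and 8.38 in Ebf2-EGFP- libraries (log2 fold change -1.92 ± 0.19 SE, limma adjusted p = 8.89e-06). In these 4 genes the libraries of the populations did not overlap.

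Since the mitotic kinesins moved together, their promoters were read for 2 short motifs of cell cycle genes, TTTGAA (the core letters of the cell cycle genes homology region, or TTCAAA on the other strand) and CCAAT (or ATTGG on the other strand). RefSeq promoters of GRCm38.p6, from 250 bases before to 50 after the start of a gene, matched 50 of the 68 members by symbol. TTTGAA on either strand was present in 11 of 12 mitotic promoters, all but that of *Kif18a*, and in 1 of 16 promoters of 13 axonal members, a promoter of *Kif1a*. It was present in 17.9% of all 32851 promoters of the same length and in 12.5% of the 4764 promoters of genes in the table. CCAAT was present in 8 of 12 mitotic and 6 of 16 axonal promoters and in 37.4% of all promoters. *Kifc1* and *Kifc5b* count as 2 of the 12 mitotic promoters. Their longest transcripts share 95.9% of aligned bases, and the 20 bases before TTCAAA are the same in both promoters. In 9 of the mitotic genes the hexamer began within 50 bases of the start site, and these stretches are shown 5′ to 3′ on the strand of the gene, with the hexamer in capitals, up to 20 bases on each side and the position of its first base counted from the start site.
Kif11, chr19:37376343-37376388, plus strand, position -19: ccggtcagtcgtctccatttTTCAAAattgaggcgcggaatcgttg
Kif15, chr9:122951042-122951087, plus strand, position -19: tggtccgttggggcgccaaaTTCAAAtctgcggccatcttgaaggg
Kif18b, chr11:102925096-102925141, minus strand, position 4: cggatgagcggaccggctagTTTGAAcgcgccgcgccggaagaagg
Kif20b, chr19:34922345-34922390, plus strand, position 8: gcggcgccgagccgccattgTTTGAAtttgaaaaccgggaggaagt
Kif22, chr7:127042412-127042457, minus strand, position -17: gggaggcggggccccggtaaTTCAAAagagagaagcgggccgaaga
Kif23, chr9:61946772-61946817, minus strand, position 3: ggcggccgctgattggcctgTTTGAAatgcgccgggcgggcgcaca
Kif4, chrX:100626064-100626109, plus strand, position 20: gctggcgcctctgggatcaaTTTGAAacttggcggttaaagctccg
Kifc1, chr17:33890607-33890652, minus strand, position 2: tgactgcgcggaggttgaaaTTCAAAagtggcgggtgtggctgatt
Kifc5b, chr17:26917100-26917140, plus strand, position 30: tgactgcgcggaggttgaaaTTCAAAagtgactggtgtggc
In *Kif20b* a second copy follows the first directly, in *Kif15* and *Kif22* another copy began at positions -234 and -215, and in *Kif14* and *Kif2c* the hexamer lay farther upstream, at positions -228 and -103. The complete promoter of *Kif11* is shown beside that of the axonal motor *Kif5c*, with any TTTGAA and CCAAT motif of either strand in capitals.
Kif11, chr19:37376132-37376431, plus strand: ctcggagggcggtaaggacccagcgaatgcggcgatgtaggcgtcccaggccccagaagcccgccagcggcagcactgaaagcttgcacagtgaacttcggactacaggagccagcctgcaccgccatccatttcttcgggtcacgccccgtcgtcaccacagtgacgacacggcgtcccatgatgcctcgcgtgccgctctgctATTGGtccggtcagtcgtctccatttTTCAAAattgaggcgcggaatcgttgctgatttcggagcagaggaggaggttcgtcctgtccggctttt
Kif5c, chr2:49619036-49619335, plus strand: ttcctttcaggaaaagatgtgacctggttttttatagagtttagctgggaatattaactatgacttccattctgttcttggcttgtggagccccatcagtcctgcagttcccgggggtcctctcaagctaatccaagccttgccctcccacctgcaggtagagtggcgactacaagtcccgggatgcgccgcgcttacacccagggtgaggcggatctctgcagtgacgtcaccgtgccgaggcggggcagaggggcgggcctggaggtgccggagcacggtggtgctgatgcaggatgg
The *Kif11* promoter held both motifs, CCAAT at position -45 and TTTGAA at position -19, and the *Kif5c* window held neither. A match describes these letters only. No entry was matched for *Camsap3*, *Dynlt1b*, *Kif20a*, *Kif21b*, *Kif5a*, *Kifc2*, *Kifc3*, *Klc2*, *Map6*, *Mapre2*, *Mapt*, *Stmn1*, *Stmn2*, *Stmn4*, *Ttll1*, *Tubb2a-ps2*, *Tubb2b* and *Tubb6*.

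Transport kinesins and light chains, 13 of 21 on the list, were mostly higher in the neurons at the first 2 stages. At E11.5 limma called 11 higher and 2 lower, against 36.8% and 44.9% of all listed genes. At E13.5 it called 10 and 3, against 32.1% and 43.5%. On the last day it called 6 and 2, against 25.8% and 31.6%. *Kif5a*, a neuronal heavy chain of conventional kinesin, measured 53.8 and 57.3 FPKM in Ebf2-EGFP+ and 9.43 and 12.8 in Ebf2-EGFP- libraries at E11.5 (log2 fold change 2.24 ± 0.20 SE, limma adjusted p = 2.01e-06) and 79.9 and 83.1 in Ebf2-EGFP+ and 35.2 and 45.2 in Ebf2-EGFP- libraries at E15.5 (log2 fold change 1.012 ± 0.20 SE, limma adjusted p = 0.0013). Its libraries did not overlap between the populations at any stage. *Kif5c*, a second neuronal heavy chain, measured 208 and 197 FPKM in Ebf2-EGFP+ and 61.8 and 56.6 in Ebf2-EGFP- libraries at E11.5 (log2 fold change 1.76 ± 0.17 SE, limma adjusted p = 2.98e-06), but 145 and 173 in Ebf2-EGFP+ and 129 and 158 in Ebf2-EGFP- libraries at E15.5 (log2 fold change 0.15 ± 0.17 SE, limma adjusted p = 0.452), where the libraries overlapped and the difference was not called. The light chain *Klc1* measured 221 and 229.8 FPKM in Ebf2-EGFP+ and 90 and 107 in Ebf2-EGFP- libraries at E11.5 (log2 fold change 1.19 ± 0.14 SE, limma adjusted p = 1.14e-05) and 205 and 218 in Ebf2-EGFP+ and 143 and 149.97 in Ebf2-EGFP- libraries at E15.5 (log2 fold change 0.53 ± 0.14 SE, limma adjusted p = 0.00694), again without overlap.

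*Kif1a*, the carrier of synaptic vesicle precursors, measured 77.3 and 80 FPKM in Ebf2-EGFP+ and 40.3 and 39.3 in Ebf2-EGFP- libraries at E11.5 (log2 fold change 0.97 ± 0.17 SE, limma adjusted p = 0.000227). Its values at E15.5 were 129 and 152 FPKM in Ebf2-EGFP+ and 90.9 and 122 in Ebf2-EGFP- libraries (log2 fold change 0.41 ± 0.17 SE, limma adjusted p = 0.0547), not called without the block and called with it (limma adjusted p = 0.00366 with the replicate block). It was also called without negative replicate 2 of E15.5 (0.62) or either negative library of E13.5 (0.41). *Kif3c*, a motor subunit of the kinesin-II family, measured 42.6 and 39.7 FPKM in Ebf2-EGFP+ and 11 and 11.4 in Ebf2-EGFP- libraries at E11.5 (log2 fold change 1.79 ± 0.15 SE, limma adjusted p = 1.56e-06) and 59.2 and 56.5 in Ebf2-EGFP+ and 43.7 and 51.8 in Ebf2-EGFP- libraries at E15.5 (log2 fold change 0.28 ± 0.15 SE, limma adjusted p = 0.143). For both genes the positive libraries lay above the negative ones at each stage, and the negative cells gained the transcript with time. Scaling brought the *Kif3c* and *Kif1a* differences at E15.5 to 0.48 and 0.62, both then called.

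Not all cargo motors were neuronal. *Kif1c*, which carries vesicles in many cell types, measured 1.96 and 3.17 FPKM in Ebf2-EGFP+ and 13.3 and 10.7 in Ebf2-EGFP- libraries at E11.5 (log2 fold change -1.88 ± 0.20 SE, limma adjusted p = 6.16e-06) and 1.29 and 1.28 in Ebf2-EGFP+ and 5.75 and 4.65 in Ebf2-EGFP- libraries at E13.5 (log2 fold change -1.43 ± 0.20 SE, limma adjusted p = 7.99e-05). Both positive libraries lay below both negative ones at these stages. *Kif16b*, a motor of early endosomes, measured 1.69 and 2.11 FPKM in Ebf2-EGFP+ and 3.61 and 3.28 in Ebf2-EGFP- libraries at E11.5 (log2 fold change -0.62 ± 0.14 SE, limma adjusted p = 0.00141). Among the kinesins of other functions, *Kif7*, a ciliary regulator of Hedgehog signalling, measured 2.12 and 2.38 FPKM in Ebf2-EGFP+ and 8.03 and 8.13 in Ebf2-EGFP- libraries at E11.5 (log2 fold change -1.49 ± 0.21 SE, limma adjusted p = 5.43e-05). *Kif24*, which acts at centrioles, measured 1.88 and 2.12 FPKM in Ebf2-EGFP+ and 5.74 and 6.34 in Ebf2-EGFP- libraries (log2 fold change -1.23 ± 0.16 SE, limma adjusted p = 2.83e-05). These 4 kinesins were thus lower in the neurons at E11.5, without overlap of the libraries. At E15.5 *Kif1c* and *Kif7* were close to the threshold (log2 fold change -0.53 ± 0.20 SE, limma adjusted p = 0.0408; log2 fold change -0.58 ± 0.21 SE, limma adjusted p = 0.0365). The *Kif1c* and *Kif7* calls at that stage were lost after scaling (-0.39 and -0.43), with only the groups compared (-0.53 and -0.58) and without replicate 1 of the negative E15.5 cells (-0.40 and -0.28). The *Kif1c* call was further lost without positive replicate 1 (-0.47) or 2 (-0.60) of E15.5 or either positive library of E13.5 (-0.53). The *Kif7* call was further lost without positive replicate 2 of E15.5 (-0.35) or any library of E11.5 (-0.58).

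In 3 kinesins the order of the populations turned around. *Kif26b*, a kinesin without motor activity that lies on chr1:178529125-178932857, measured 11.8 and 12.4 FPKM in Ebf2-EGFP+ and 3.26 and 2.68 in Ebf2-EGFP- libraries at E11.5 (log2 fold change 1.73 ± 0.17 SE, limma adjusted p = 3.56e-06). By E13.5 it measured 7.04 and 7.6 FPKM in Ebf2-EGFP+ and 12.3 and 14.2 in Ebf2-EGFP- libraries (log2 fold change -0.77 ± 0.17 SE, limma adjusted p = 0.00159), and by E15.5 2.1 and 2.61 in Ebf2-EGFP+ and 10.2 and 12.5 in Ebf2-EGFP- libraries (log2 fold change -1.88 ± 0.17 SE, limma adjusted p = 6.31e-06). The libraries did not overlap at any stage, and the change of the difference was the most negative among the members (log2 fold change -3.61 ± 0.24 SE, limma adjusted p = 1.62e-06). Its close relative *Kif26a* went the other way, with 27.7 and 30.6 FPKM in Ebf2-EGFP+ and 17 and 14.8 in Ebf2-EGFP- libraries at E11.5 (log2 fold change 0.84 ± 0.29 SE, limma adjusted p = 0.0182) and 72.2 and 43.4 in Ebf2-EGFP+ and 19.6 and 10.5 in Ebf2-EGFP- libraries at E15.5 (log2 fold change 1.89 ± 0.29 SE, limma adjusted p = 0.000224). The E11.5 difference of *Kif26a* was not called without replicate 2 of the positive (0.77) or of the negative cells (0.75) of that stage.

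*Kif21b*, a neuronal regulator of microtubule growth on chr1:136131390-136178001, measured 149 and 177 FPKM in Ebf2-EGFP+ and 25.2 and 26.8 in Ebf2-EGFP- libraries at E11.5 (log2 fold change 2.60 ± 0.24 SE, limma adjusted p = 2.33e-06). At E13.5 the values were 165 and 212 FPKM in Ebf2-EGFP+ and 93.7 and 158 in Ebf2-EGFP- libraries (log2 fold change 0.62 ± 0.24 SE, limma adjusted p = 0.0337), and at E15.5 144 and 118 FPKM in Ebf2-EGFP+ and 151 and 196 in Ebf2-EGFP- libraries (log2 fold change -0.40 ± 0.24 SE, limma adjusted p = 0.171; limma adjusted p = 0.0348 with the replicate block). Thus both positive libraries lay above both negative ones at the first 2 stages and below them at E15.5. The E13.5 call was lost without replicate 2 of the positive (0.44) or replicate 1 of the negative cells (0.24), and with only the groups compared (0.62). *Kif21a*, its paralogue, measured 34.7 and 43.2 FPKM in Ebf2-EGFP+ and 28.7 and 31.6 in Ebf2-EGFP- libraries at E11.5, 20.7 and 19.5 in Ebf2-EGFP+ and 38.4 and 36.3 in Ebf2-EGFP- libraries at E13.5 and 19.5 and 17.1 in Ebf2-EGFP+ and 39.3 and 35.6 in Ebf2-EGFP- libraries at E15.5. It was lower in the neurons at the later stages (at E15.5 log2 fold change -0.996 ± 0.15 SE, limma adjusted p = 0.000181), with no overlap. The small E11.5 difference of *Kif21a* in favour of the neurons (log2 fold change 0.35 ± 0.15 SE, limma adjusted p = 0.0426) was lost without any of 5 libraries, with values of 0.20 without positive replicate 2, 0.28 and 0.42 without negative replicates 1 and 2 of E11.5, and 0.35 without either positive library of E13.5.

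**Figure D3:**
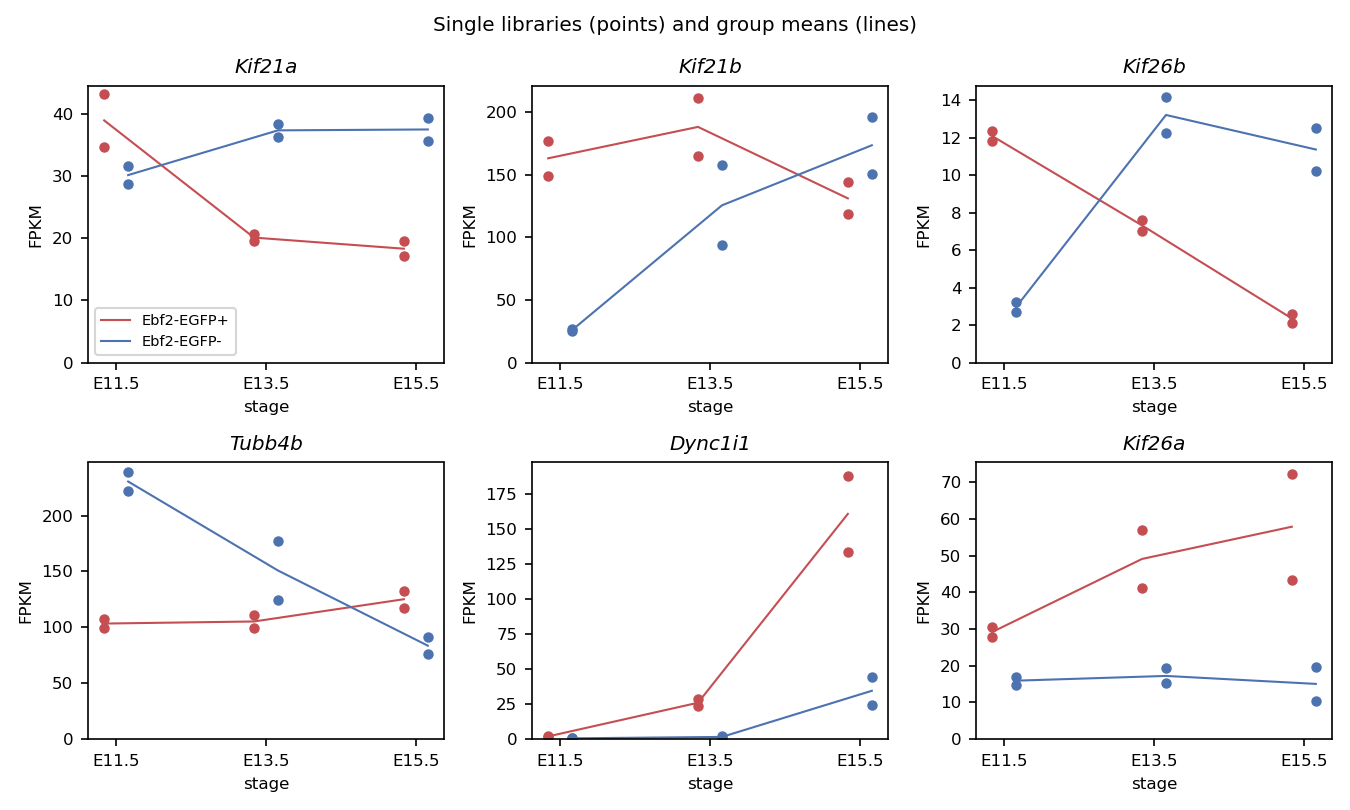
FPKM of *Kif21a*, *Kif21b*, *Kif26b*, *Tubb4b*, *Dync1i1* and *Kif26a* (vertical axes, linear from 0) by stage in Ebf2-EGFP+ (red) and Ebf2-EGFP- cells (blue). Points are the 2 libraries of a group and lines join the group means; the lines cross for the first 4 genes and draw apart for *Dync1i1* and *Kif26a*.

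A tubulin gene was the most abundant member. *Tuba1a*, the main alpha tubulin of young neurons, measured 6207 and 5266 FPKM in Ebf2-EGFP+ and 2119.8 and 2153 in Ebf2-EGFP- libraries at E11.5 (log2 fold change 1.42 ± 0.29 SE, limma adjusted p = 0.000638). At E15.5 it measured 6646 and 8227 FPKM in Ebf2-EGFP+ and 5177 and 6594 in Ebf2-EGFP- libraries (log2 fold change 0.34 ± 0.29 SE, limma adjusted p = 0.323; limma adjusted p = 0.0397 with the replicate block). Both positive libraries exceeded both negative ones at each stage, while the level in negative cells rose. *Tuba4a*, an alpha tubulin encoded without the terminal tyrosine, had another course, with 5.92 and 5.24 FPKM in Ebf2-EGFP+ and 0.797 and 1.08 in Ebf2-EGFP- libraries at E11.5, 18.3 and 12.5 in Ebf2-EGFP+ and 13.48 and 12.5 in Ebf2-EGFP- libraries at E13.5 and 4.35 and 3.02 in Ebf2-EGFP+ and 6.72 and 5.9 in Ebf2-EGFP- libraries at E15.5. It was higher in the neurons at E11.5 (log2 fold change 1.77 ± 0.21 SE, limma adjusted p = 1.31e-05), overlapped at E13.5 and was lower at E15.5 (log2 fold change -0.65 ± 0.21 SE, limma adjusted p = 0.0193). The E15.5 call of *Tuba4a* was lost without replicate 2 of the positive (-0.45) or replicate 1 of the negative cells (-0.57), and with only the groups compared in the fit (-0.65). At E13.5 *Tuba4a* was called higher after scaling (0.50). The longest transcript of *Tuba1a* shares 98.3% of aligned bases with that of *Tuba1b*, a gene not analysed here, so reads may be divided between them.

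Beta tubulins were represented by 7 genes of 11 on the list, of which limma called 5 higher and 2 lower in the neurons at E11.5, against 36.8% and 44.9% of all listed genes. *Tubb3*, the neuron-specific isotype on chr8:123411553-123422015, measured 2199 and 1885 FPKM in Ebf2-EGFP+ and 429 and 467 in Ebf2-EGFP- libraries at E11.5 (log2 fold change 2.18 ± 0.20 SE, limma adjusted p = 2.09e-06) and 1438 and 1344 in Ebf2-EGFP+ and 718 and 752 in Ebf2-EGFP- libraries at E13.5 (log2 fold change 0.92 ± 0.20 SE, limma adjusted p = 0.00135). At E15.5 it measured 1902 and 1973 FPKM in Ebf2-EGFP+ and 1229 and 1523 in Ebf2-EGFP- libraries (log2 fold change 0.50 ± 0.20 SE, limma adjusted p = 0.0469). The libraries did not overlap at any stage, but the last call stood just under the threshold and was lost when any 1 of 11 libraries was left out, with values between 0.35 without negative replicate 1 and 0.53 without positive replicate 1 of E15.5 and 0.50 without libraries of earlier stages. With only the groups compared it was lost too (0.50). *Tubb2b*, the isotype with the highest level at E13.5 and E15.5, measured 2075 and 1700.1 FPKM in Ebf2-EGFP+ and 843 and 753 in Ebf2-EGFP- libraries at E11.5 (log2 fold change 1.24 ± 0.22 SE, limma adjusted p = 0.000249). By E15.5 it measured 3546 and 3483 FPKM in Ebf2-EGFP+ and 2440.1 and 2946 in Ebf2-EGFP- libraries (log2 fold change 0.39 ± 0.22 SE, limma adjusted p = 0.143; limma adjusted p = 0.0133 with the replicate block). After scaling this difference was 0.60 and called, as it was in the fit without a trend (0.39). *Tubb4a* remained apart, with 243 and 217 FPKM in Ebf2-EGFP+ and 108 and 150.3 in Ebf2-EGFP- libraries at E15.5 (log2 fold change 0.85 ± 0.18 SE, limma adjusted p = 0.00176). *Tubb2a* measured 773 and 680.4 FPKM in Ebf2-EGFP+ and 299.9 and 280.1 in Ebf2-EGFP- libraries at E11.5 (log2 fold change 1.32 ± 0.20 SE, limma adjusted p = 8.94e-05) and shares 96.4% of aligned transcript bases with *Tubb2b* and 94.9% with the pseudogene *Tubb2a-ps2*, which makes the division of reads among them uncertain.

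The make-up of the listed beta tubulin pool differed most at E11.5. Of the FPKM summed over 6 genes (all but the pseudogene), *Tubb3* held 41.7 ± 0.266% in Ebf2-EGFP+ and 24.7 ± 2.32% in Ebf2-EGFP- cells (mean ± SD, n = 2). At E15.5 its share was 26.8 ± 0.82% and 26.7 ± 0.61%, a difference within the spread of the libraries. *Tubb2b* held 38.4 ± 0.988% and 43.9 ± 1.95% at E11.5 and 48.6 ± 0.397% and 52.3 ± 0.232% at E15.5. *Tubb4b* held 2.12 ± 0.122% of the pool in positive and 12.7 ± 0.248% in negative cells at E11.5, and 1.73 ± 0.154% and 1.65 ± 0.428% at E15.5. The shares were described and not tested, and they concern only the isotypes in the table.

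**Figure D4:**
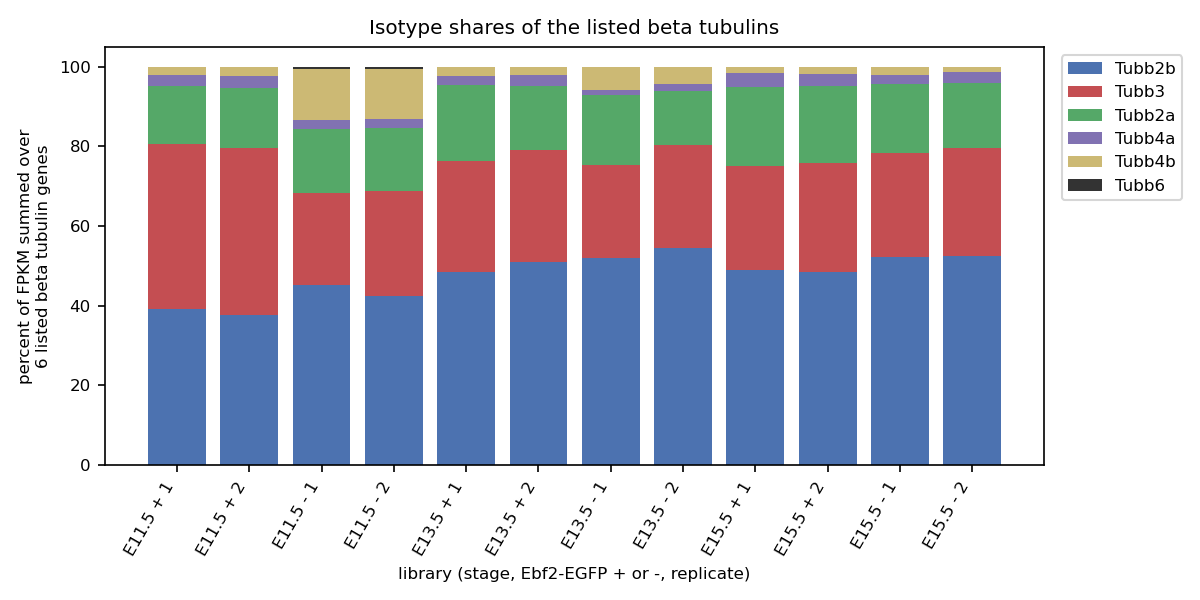
Share of each isotype (vertical axis, percent) in the FPKM summed over the 6 listed beta tubulin genes in each of the 12 libraries. Colours are isotypes; *Tubb3* takes 41.5 and 41.8% in the positive libraries of E11.5 and *Tubb4b* takes 12.8 and 12.5% in the negative ones.

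Other isotypes belonged to the progenitor side at first. *Tubb4b*, a broadly expressed isotype also found in cilia, lies on chr2:25222158-25224702 and measured 108 and 99.2 FPKM in Ebf2-EGFP+ and 239 and 222 in Ebf2-EGFP- libraries at E11.5 (log2 fold change -1.15 ± 0.18 SE, limma adjusted p = 0.000102). It measured 111 and 99.8 FPKM in Ebf2-EGFP+ and 177 and 125 in Ebf2-EGFP- libraries at E13.5 (log2 fold change -0.50 ± 0.18 SE, limma adjusted p = 0.0259) and 118 and 133 in Ebf2-EGFP+ and 91.5 and 75.7 in Ebf2-EGFP- libraries at E15.5 (log2 fold change 0.58 ± 0.18 SE, limma adjusted p = 0.0166). The level was steady in the neurons and fell in the negative cells (log2 fold change -1.46 ± 0.18 SE, limma adjusted p = 1.39e-05), so the order turned, without overlap at any stage. The E13.5 call was lost after scaling (-0.19), with only the groups compared (-0.50) and without positive replicate 2 (-0.42) or negative replicate 1 (-0.24), and the E15.5 call without replicate 2 of either population (0.49 and 0.45). *Tubb6* measured 1.45 and 2.13 FPKM in Ebf2-EGFP+ and 10.8 and 10.9 in Ebf2-EGFP- libraries at E11.5 (log2 fold change -2.10 ± 0.20 SE, limma adjusted p = 3.43e-06) and at most 1.41 FPKM in any library at E15.5. *Tube1*, the epsilon tubulin of centrioles, measured 1.6 and 1.58 FPKM in Ebf2-EGFP+ and 3.16 and 3.2 in Ebf2-EGFP- libraries at E11.5 (log2 fold change -0.69 ± 0.15 SE, limma adjusted p = 0.000976). *Tubg2*, a gamma tubulin gene, was instead higher in the neurons, with 4.03 and 3.7 FPKM in Ebf2-EGFP+ and 2.35 and 2.13 in Ebf2-EGFP- libraries at E11.5 (log2 fold change 0.58 ± 0.17 SE, limma adjusted p = 0.00665) and 17.7 and 14.5 in Ebf2-EGFP+ and 7.42 and 7.07 in Ebf2-EGFP- libraries at E15.5 (log2 fold change 1.05 ± 0.17 SE, limma adjusted p = 0.000314).

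Structural microtubule-associated proteins, doublecortins and stathmins held the largest differences in favour of the neurons at E11.5. Of 13 in the table, 12, 11 and 9 were called higher at the 3 stages, against 36.8%, 32.1% and 25.8% of all listed genes, with medians of 1.71, 1.05 and 0.70. *Dcx*, which stabilises microtubules in migrating neurons, measured 300.4 and 257 FPKM in Ebf2-EGFP+ and 37.3 and 39.9 in Ebf2-EGFP- libraries at E11.5 (log2 fold change 2.81 ± 0.22 SE, limma adjusted p = 9.77e-07). It measured 246 and 259.7 FPKM in Ebf2-EGFP+ and 120.04 and 170.4 in Ebf2-EGFP- libraries at E13.5 (log2 fold change 0.82 ± 0.22 SE, limma adjusted p = 0.00598), and 216 and 283 in Ebf2-EGFP+ and 219.8 and 325 in Ebf2-EGFP- libraries at E15.5 (log2 fold change -0.11 ± 0.22 SE, limma adjusted p = 0.683). The level hardly moved in the neurons, and the negative cells came up to it, so that the libraries overlapped at E15.5, where scaling turned the sign of the small difference (0.10). The E13.5 call was lost without replicate 1 of the negative cells (0.57). *Map2*, the dendritic protein, narrowed likewise but did not overlap, with 399 and 366 FPKM in Ebf2-EGFP+ and 77.5 and 84.8 in Ebf2-EGFP- libraries at E11.5 (log2 fold change 2.22 ± 0.16 SE, limma adjusted p = 5.57e-07) and 261 and 298 in Ebf2-EGFP+ and 206 and 256 in Ebf2-EGFP- libraries at E15.5 (log2 fold change 0.28 ± 0.16 SE, limma adjusted p = 0.155; limma adjusted p = 0.0428 with the replicate block). After scaling the E15.5 difference of *Map2* was 0.49 and called.

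*Mapt*, which encodes the axonal protein tau on chr11:104229409-104332090, kept a difference at each stage while it rose in both populations. It measured 90 and 84.3 FPKM in Ebf2-EGFP+ and 12.7 and 12.2 in Ebf2-EGFP- libraries at E11.5 (log2 fold change 2.71 ± 0.21 SE, limma adjusted p = 7.59e-07). At E13.5 it measured 164 and 169 FPKM in Ebf2-EGFP+ and 34.1 and 56.5 in Ebf2-EGFP- libraries (log2 fold change 1.90 ± 0.21 SE, limma adjusted p = 1.64e-05), and at E15.5 442 and 414 in Ebf2-EGFP+ and 178 and 228 in Ebf2-EGFP- libraries (log2 fold change 1.08 ± 0.21 SE, limma adjusted p = 0.00104). Both positive libraries exceeded both negative ones throughout, and the log2 change from E11.5 to E15.5 was 2.28 in positive and 3.91 in negative cells (limma adjusted p = 2.02e-06 and 4.28e-08). *Map1b*, an early axonal protein, measured 530.3 and 537 FPKM in Ebf2-EGFP+ and 166 and 158 in Ebf2-EGFP- libraries at E11.5 (log2 fold change 1.71 ± 0.17 SE, limma adjusted p = 4.25e-06) and 437 and 455 in Ebf2-EGFP+ and 236 and 303 in Ebf2-EGFP- libraries at E15.5 (log2 fold change 0.74 ± 0.17 SE, limma adjusted p = 0.00378), again without overlap.

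Stathmins, which bind tubulin dimers, divided into general and neuronal forms. *Stmn1*, found in progenitors as well, measured 2336 and 2108 FPKM in Ebf2-EGFP+ and 912 and 948 in Ebf2-EGFP- libraries at E11.5 (log2 fold change 1.25 ± 0.22 SE, limma adjusted p = 0.000258). At E15.5 the libraries overlapped, with 2463 and 2634 FPKM in Ebf2-EGFP+ and 2246 and 2799.8 in Ebf2-EGFP- libraries (log2 fold change 0.02 ± 0.22 SE, limma adjusted p = 0.941). *Stmn2*, a growth cone protein, measured 429 and 368 FPKM in Ebf2-EGFP+ and 57.3 and 62.7 in Ebf2-EGFP- libraries at E11.5 (log2 fold change 2.71 ± 0.20 SE, limma adjusted p = 6.78e-07) and 494 and 569.7 in Ebf2-EGFP+ and 200.4 and 299 in Ebf2-EGFP- libraries at E15.5 (log2 fold change 1.11 ± 0.20 SE, limma adjusted p = 0.000749), with no overlap at any stage. *Map7*, which recruits conventional kinesin to microtubules, was the exception of the group, with 0.51 and 0.458 FPKM in Ebf2-EGFP+ and 2.1 and 1.84 in Ebf2-EGFP- libraries at E11.5 (log2 fold change -0.9997 ± 0.13 SE, limma adjusted p = 2.55e-05) and at most 0.231 FPKM in any library at E15.5.

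Among the 4 subunits of cytoplasmic dynein, the minus-end motor, one stood out. *Dync1i1*, the intermediate chain typical of neurons, lies on chr6:5725600-6028039 and measured 2.15 and 1.67 FPKM in Ebf2-EGFP+ and 0.481 and 0.583 in Ebf2-EGFP- libraries at E11.5 (log2 fold change 0.92 ± 0.30 SE, limma adjusted p = 0.0141). At E13.5 it measured 23.6 and 28.4 FPKM in Ebf2-EGFP+ and 0.874 and 2.22 in Ebf2-EGFP- libraries (log2 fold change 3.45 ± 0.30 SE, limma adjusted p = 5.42e-06), and at E15.5 134 and 188 in Ebf2-EGFP+ and 24.3 and 44.7 in Ebf2-EGFP- libraries (log2 fold change 2.23 ± 0.30 SE, limma adjusted p = 0.000101). The difference at E13.5 was the largest of any member at any stage, and the rise in positive cells from E11.5 to E15.5 was the largest of any member as well (log2 fold change 5.78 ± 0.30 SE, limma adjusted p = 6.21e-08). No libraries overlapped between the populations at any stage. The E11.5 call was lost without replicate 1 of the positive (0.80) or of the negative cells (0.87). Ratios of group means, positive over negative, were 3.59, 16.8 and 4.66 by stage. Adding 1 FPKM compresses the low values of E11.5, so the log2 fold changes overstate the growth after that stage. The heavy chain *Dync1h1*, the motor itself, differed less, with 151 and 148 FPKM in Ebf2-EGFP+ and 91.5 and 68.5 in Ebf2-EGFP- libraries at E11.5 (log2 fold change 0.91 ± 0.21 SE, limma adjusted p = 0.00162) and 140.2 and 164 in Ebf2-EGFP+ and 112 and 155 in Ebf2-EGFP- libraries at E15.5 (log2 fold change 0.20 ± 0.21 SE, limma adjusted p = 0.417). *Dync1li1* and the light chain *Dynlt1b* were higher in the neurons at E11.5 (log2 fold change 0.94 ± 0.13 SE, limma adjusted p = 5.07e-05; log2 fold change 0.91 ± 0.26 SE, limma adjusted p = 0.00605), each without overlap; the *Dynlt1b* call was lost without positive replicate 1 (0.69). At E15.5 *Dynlt1b* measured 121 and 73 FPKM in Ebf2-EGFP+ and 169 and 118 in Ebf2-EGFP- libraries (log2 fold change -0.58 ± 0.26 SE, limma adjusted p = 0.0726; limma adjusted p = 0.000773 with the replicate block), and the difference was called without positive replicate 1 (-0.94) or negative replicate 2 (-0.84). No axonemal dynein matched the names.

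Enzymes that add glutamate chains to tubulin differed in direction. *Ttll1*, the catalytic subunit of a neuronal polyglutamylase, measured 50.9 and 42.5 FPKM in Ebf2-EGFP+ and 15.6 and 14.8 in Ebf2-EGFP- libraries at E11.5 (log2 fold change 1.55 ± 0.14 SE, limma adjusted p = 2.37e-06). *Ttll7*, which modifies beta tubulin in neurites, measured 5.75 and 5.75 FPKM in Ebf2-EGFP+ and 1.9 and 1.91 in Ebf2-EGFP- libraries (log2 fold change 1.22 ± 0.22 SE, limma adjusted p = 0.00028). *Ttll4* was lower in the neurons, with 6.81 and 9.67 FPKM in Ebf2-EGFP+ and 22.2 and 26.7 in Ebf2-EGFP- libraries at E11.5 (log2 fold change -1.47 ± 0.21 SE, limma adjusted p = 5.29e-05) and 2.3 and 2.48 in Ebf2-EGFP+ and 4.27 and 4.91 in Ebf2-EGFP- libraries at E15.5 (log2 fold change -0.72 ± 0.21 SE, limma adjusted p = 0.0125). The libraries of the populations did not overlap for these 3 enzymes at any stage. The *Ttll4* call at E15.5 was lost without positive replicate 1 (-0.68) or negative replicate 2 (-0.64).

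Proteins that bind microtubule ends were all on the neuronal side at E11.5, where limma called 7 of 7 higher, against 36.8% of all listed genes. At the later stages it called 6 and 3 of 7, against 32.1% and 25.8%. *Mapre3*, the neuronal end-binding protein EB3, measured 25.2 and 24.8 FPKM in Ebf2-EGFP+ and 8.41 and 11.497 in Ebf2-EGFP- libraries at E11.5 (log2 fold change 1.26 ± 0.17 SE, limma adjusted p = 3.27e-05) and 42.3 and 33.6 in Ebf2-EGFP+ and 29.9 and 26 in Ebf2-EGFP- libraries at E15.5 (log2 fold change 0.42 ± 0.17 SE, limma adjusted p = 0.0516; limma adjusted p = 0.0117 with the replicate block). The E15.5 difference of *Mapre3* was called without positive replicate 2 of that stage (0.58) or either negative library of E11.5 (0.42), and after scaling (0.63). *Clip2*, a plus-end linker, measured 61 and 57.8 FPKM in Ebf2-EGFP+ and 21.1 and 19.8 in Ebf2-EGFP- libraries at E11.5 (log2 fold change 1.49 ± 0.17 SE, limma adjusted p = 9.69e-06), and *Clasp2*, which rescues shrinking plus ends, 47.5 and 45.3 in Ebf2-EGFP+ and 22 and 20.8 in Ebf2-EGFP- libraries (log2 fold change 1.08 ± 0.15 SE, limma adjusted p = 3.94e-05). *Camsap3*, a minus-end cap, measured 21 and 23.7 FPKM in Ebf2-EGFP+ and 8.96 and 9.77 in Ebf2-EGFP- libraries at E11.5 (log2 fold change 1.17 ± 0.17 SE, limma adjusted p = 4.85e-05). In each case both positive libraries lay above both negative ones.

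As a list, the axonal and neuronal members contrasted with the mitotic kinesins at each stage, and their own gap between the populations narrowed after E11.5. Of 27 on the list 21 were in the table, and limma called 21 higher and none lower at E11.5, against 36.8% and 44.9% of all listed genes. At E13.5 it called 20 and 1, against 32.1% and 43.5%. By E15.5 the numbers were 14 and 1, against 25.8% and 31.6%. *Kif21a* was the one called lower at both later stages. With only the groups compared in the fit, 9 were called higher at E15.5, where 977 of all 4859 genes were called higher. Medians on the log2 scale were 1.75, 0.82 and 0.53. Summed levels were 5372 and 4894 FPKM in Ebf2-EGFP+ and 1243 and 1310.1 in Ebf2-EGFP- libraries at E11.5 and 5449 and 5732 FPKM in Ebf2-EGFP+ and 3431 and 4310.0 in Ebf2-EGFP- libraries at E15.5, with *Tubb3* the most abundant. From E11.5 to E15.5 19 of 21 rose in the negative cells, against 37.7% of all listed genes, and 8 of 21 in the positive cells, against 33.3%.

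Cortical plate neuron markers rose in both populations, 6 of 6 in the positive and 5 of 6 in the negative cells from E11.5 to E15.5, against 33.3% and 37.7% of all listed genes. The 6 markers, all in the table and led by *Neurod6*, summed to 188 and 245 FPKM in Ebf2-EGFP+ and 55.9 and 58.5 in Ebf2-EGFP- libraries at E11.5. They summed to 943 and 952 FPKM in Ebf2-EGFP+ and 469 and 590.5 in Ebf2-EGFP- libraries at E13.5 and to 1035 and 674 FPKM in Ebf2-EGFP+ and 897 and 719 in Ebf2-EGFP- libraries at E15.5. Limma called 3, 5 and 3 of them higher in positive cells by stage, against 36.8%, 32.1% and 25.8% of all listed genes. It called 1 of them lower at E15.5, against 31.6%. The 8 ganglionic eminence and interneuron markers, led by *Dlx2*, summed to 11.7 and 14.9 FPKM in Ebf2-EGFP+ and 180.4 and 239 in Ebf2-EGFP- libraries at E11.5, 1.86 and 1.61 FPKM in Ebf2-EGFP+ and 49 and 54.7 in Ebf2-EGFP- libraries at E13.5 and 2.67 and 3.42 FPKM in Ebf2-EGFP+ and 86.3 and 75.4 in Ebf2-EGFP- libraries at E15.5. Of the latter, 2 read 0 in at least 1 library. The part of either neuron type in the rise of axonal members was not tested.

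Summed markers of blood and of tissue around the cortex were highest at E11.5 in the negative libraries. Erythroid markers, 4 of 7 in the table and led by *Hbb-y*, summed to 97.1 and 32.9 FPKM in Ebf2-EGFP+ and 1306 and 2752 in Ebf2-EGFP- libraries at E11.5 and to at most 23.2 FPKM at the later stages. Meningeal and fibroblast markers, 6 of 6 and led by *Col1a2*, summed to 28.5 and 30.5 FPKM in Ebf2-EGFP+ and 83.1 and 71.5 in Ebf2-EGFP- libraries at E11.5 and to at most 4.01 FPKM later. Ciliated and choroid plexus markers, 3 of 5 and led by *Ttr*, summed to 21 and 20.7 FPKM in Ebf2-EGFP+ and 59.5 and 81 in Ebf2-EGFP- libraries at E11.5 and to at most 6.47 FPKM later. Among the last, *Foxj1* went the other way at E11.5 (log2 fold change 0.86 ± 0.26 SE, limma adjusted p = 0.00908). Endothelial markers, 3 of 6 and led by *Cldn5*, reached at most 7.19 FPKM in any library. The only microglial marker in the table, *Aif1*, had the opposite direction, with 0.272 and 0.359 FPKM in Ebf2-EGFP+ and 0.131 and 0.162 in Ebf2-EGFP- libraries at E11.5 and 2.92 and 2.87 FPKM in Ebf2-EGFP+ and 0.626 and 0.773 in Ebf2-EGFP- libraries at E15.5 (at E15.5 log2 fold change 1.20 ± 0.11 SE, limma adjusted p = 8.8e-06). At least 1 library read 0 for 3 erythroid, 1 endothelial and 1 ciliated marker. The part of these cells in the E11.5 differences of the microtubule genes was not tested.

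Axonal cytoskeleton and transport genes outside the chosen families were compared from a list of 50, of which 30 were in the table. Limma called 27 higher and 2 lower in the neurons at E11.5, against 36.8% and 44.9% of all listed genes. At E13.5 the numbers were 22 and 3, against 32.1% and 43.5%. By E15.5 they were 13 and 1, against 25.8% and 31.6%. From E11.5 to E15.5 in positive cells 16 of the 30 rose, against 33.3%, and 7 fell, against 42.1%. *Gap43*, a growth cone protein, measured 224 and 192 FPKM in Ebf2-EGFP+ and 43.8 and 43.4 in Ebf2-EGFP- libraries at E11.5 (log2 fold change 2.22 ± 0.15 SE, limma adjusted p = 3.81e-07) and 460.3 and 511 in Ebf2-EGFP+ and 153 and 150.3 in Ebf2-EGFP- libraries at E15.5 (log2 fold change 1.67 ± 0.15 SE, limma adjusted p = 6.62e-06). *Dpysl3*, a collapsin response mediator, measured 581 and 504 FPKM in Ebf2-EGFP+ and 121 and 122 in Ebf2-EGFP- libraries at E11.5 (log2 fold change 2.15 ± 0.19 SE, limma adjusted p = 1.63e-06). The neurofilament genes *Nefl* and *Nefm* fell in the positive cells, *Nefl* from 29.2 and 20.7 FPKM at E11.5 to 4.06 and 5.7 at E15.5 (log2 fold change -2.13 ± 0.30 SE, limma adjusted p = 4.9e-05). *Nefm* fell from 32.2 and 28 to 9.52 and 10 FPKM (log2 fold change -1.53 ± 0.19 SE, limma adjusted p = 2.31e-05). The 2 libraries of each stage did not overlap in either gene.

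Across the members, the gap between the populations at E15.5, set against that at E11.5, had moved in 11 members toward the positive cells, against 32% of all listed genes, and in 33 toward the negative cells, against 27.7%. Only the second share exceeded its background. The median change was -0.63 for the members and 0.17 for all genes. Of the 21 axonal members 16 changed toward the negative cells and none toward the positive. With 0.1 FPKM added the count of 11 was 6, the median of all genes was -0.056, and 1184 of all genes were called toward the positive cells in place of 1557. The count of 11 was lower without replicate 1 or 2 of the negative cells or replicate 1 of the positive cells at E11.5. It was also lower without replicate 2 of either population at E15.5. In each of these settings fewer of all genes were called toward the positive cells as well.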

How the data were processed

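Bulk RNA-seq of 12 libraries, 2 in each of 6 groups, was analysed from the FPKM that the authors deposited. Per the labels and methods, the authors aligned reads to mm10 (the same assembly as GRCm38) with TopHat2 2.0.8b and computed FPKM with Cufflinks 2.2.0, in a table of 4859 coding genes that they had selected as differential. Columns with the authors' fold changes and p-values were not used, and neither was the lncRNA table, in which no name matched. The members and lists were chosen with earlier results of these data known. Since the same libraries served to select the genes, p-values describe the list and do not test the selection.

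FPKM were used as deposited, without a filter, on the scale log2(FPKM + 1), which understates the change of low genes. One limma 3.58.1 fit (R 4.3.3) held all 12 libraries as 6 groups and moderated variances with a trend; tests were two-sided, adjusted by Benjamini-Hochberg over all genes in each comparison, and called under 0.05. Simulated data were used to test the code. The methods state an average depth but none per library. Low values fell on a grid of whole fragments in at most 48.0% of genes, so counts were not recovered and no counting error was computed; precision is the spread of 2 libraries. The methods describe biological replicates.

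Replicate numbers in the labels are shared by the populations of a stage. The distance of a library from its group mean was set against that of the other population's library with its number; over all genes r was 0.431, 0.534 and 0.431 by stage, so the numbers were taken to pair libraries in a fit with a replicate block. Other alternatives were a pseudocount of 0.1, median-of-ratios scaling, a mean of at least 1 FPKM, no trend, only the groups compared, and each library left out in turn.

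The text names, within each role, up to 4 members called with the largest difference in each direction and without overlap, up to 5 with the largest called change of the difference in each direction, and 24 of 27 members named in advance, 49 in all; *Kif14*, *Kif18a*, *Kif18b*, *Kif20b*, *Kifc5b* and *Tubb2a-ps2* are named beside these after their values were seen, and others only for lack of a promoter entry. The gene said to lead a list has its highest sum over the libraries. Gene positions and promoters came from RefSeq GRCm38.p6, and transcript identities and exon overlaps from GENCODE M21. Exons of 11 members overlap a protein-coding gene, among the named ones *Kif20a*, *Kif4*, *Kif7*, *Tuba1a*, *Tuba4a*, *Tubb4b* and *Tube1*, and whether counting used strand is not given in the sources used here.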

Additional observations from a re-analysis of the deposited data

Results flagged for a closer look

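Members are given here where the difference between Ebf2-EGFP+ and Ebf2-EGFP- cells was not the same at E15.5 as at E11.5, by limma's test of the change itself. Such changes were common in the table, with 32% of all listed genes called toward the positive and 27.7% toward the negative cells. The 5 largest called changes in each direction are given. Toward the negative cells the changes were those of *Kif26b* (log2 fold change -3.61 ± 0.24 SE, limma adjusted p = 1.62e-06), *Kif21b* (log2 fold change -2.996 ± 0.34 SE, limma adjusted p = 3.95e-05) and *Dcx* (log2 fold change -2.93 ± 0.32 SE, limma adjusted p = 3.09e-05). *Tuba4a* (log2 fold change -2.42 ± 0.30 SE, limma adjusted p = 6.33e-05) and *Map2* (log2 fold change -1.94 ± 0.23 SE, limma adjusted p = 4.94e-05) followed. In these 5 both E11.5 libraries of the positive cells lay above both of the negative cells, and at E15.5 they lay below in *Kif26b*, *Kif21b* and *Tuba4a*, overlapped in *Dcx* and still lay above in *Map2*.

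Toward the positive cells the changes were those of *Tubb6* (log2 fold change 1.84 ± 0.29 SE, limma adjusted p = 0.000325), *Tubb4b* (log2 fold change 1.73 ± 0.25 SE, limma adjusted p = 0.000214) and *Kif1c* (log2 fold change 1.35 ± 0.29 SE, limma adjusted p = 0.00198). *Dync1i1* (log2 fold change 1.31 ± 0.43 SE, limma adjusted p = 0.0205) and *Map7* (log2 fold change 1.13 ± 0.18 SE, limma adjusted p = 0.000382) followed. At E15.5 no library read above 1.41 FPKM for *Tubb6* or 0.231 FPKM for *Map7*. The *Dync1i1* change was 0.60 and not called with 0.1 FPKM added, and it was not called without replicate 2 of the positive (1.19) or of the negative cells of E11.5 (1.26), replicate 2 of the positive (1.06) or replicate 1 of the negative cells of E15.5 (0.88).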

How the results depend on the processing

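Counts of members called moved by over 1.5 times in few settings. With 1 library left out, the members called higher at E15.5 numbered 16 to 27 (26 with all libraries), those higher at every stage 15 to 26 (25 with all) and those whose difference changed toward the positive cells 7 to 12 (11 with all, 6 with a pseudocount of 0.1). Mitotic members whose difference changed toward the negative cells numbered 0 to 3 with 1 library left out (1 with all), 8 with a pseudocount of 0.1, 3 after scaling and 3 with the replicate block. Axonal members called higher at E15.5 numbered 9 with only the groups compared (14 in the fit of all libraries), where fewer libraries estimate the spread. All genes called higher numbered 977 and 1254 in these fits. In the other cases the cause was not tested.

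Of 2822 values recomputed for named genes, 2679 kept direction and side of the threshold, 95 lost a call, 34 gained one and 14 changed sign. Each change of sign concerned a difference that was not called: after scaling, *Dcx* (0.0963), *Kif16b* (0.0743) and *Tube1* (0.0528) at E15.5. With 1 library left out, the ranges that crossed 0 were -0.39 to 0.17 for *Dcx*, -0.0311 to 0.44 for *Dync1h1*, -0.13 to 0.0611 for *Kif16b*, -0.14 to 0.18 for *Stmn1* and -0.14 to 0.0469 for *Tube1* at E15.5. At E13.5 they were -0.15 to 0.19 for *Dynlt1b* and -0.0500 to 0.47 for *Tuba4a*. A library left without its partner was assumed to vary like the other groups.

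The paired fit with the replicate block added calls for 10 differences of named genes and removed none: 7 given beside the results at E15.5, that of *Ttll1* and 2 at E13.5, *Dync1li1* (log2 fold change 0.23, limma adjusted p = 0.0488 with the replicate block) and *Stmn1* (0.46, limma adjusted p = 0.00476 with the replicate block). For *Ttll1* at E15.5 it gave 0.35 (limma adjusted p = 0.0202 with the replicate block). The block changed no other call of a named gene in the comparisons of the populations. No counting error was computed, so for members under 1 FPKM it was not set apart from other spread.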
